A study of Danio rerio with 12 samples.

Results

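The RNA of TALE KD zebrafish embryos was compared with that of control embryos at 6hpf, the onset of gastrulation. The comparison holds 6 of the 12 RNA-seq libraries of the series, namely 3 TALE KD libraries and 3 control libraries at 6hpf, and the other libraries are from 12hpf, a segmentation stage. The members were all genes with a mean of at least 10 estimated counts over the 6 libraries, 10202 of the 14850 genes listed. TALE KD embryos were injected at the 1 to 2 cell stage with morpholino oligos (MOs), antisense molecules designed to block pbx2, pbx4 and prep1.1, the last listed as pknox1.1, dissolved in water that held phenol red dye. Control embryos were injected with water and the dye and received no oligo, so that an effect of these 3 targets cannot be told apart from a general effect of morpholinos. Both groups were Ekwill strain embryos kept at 28°C, and each library was made from polyA RNA of a pool of whole embryos, labelled as a biological replicate. In whole-embryo RNA, fewer cells of a type and less RNA per cell cannot be told apart.

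TALE proteins are homeodomain transcription factors with an extra loop of amino acids in the homeodomain, and include the Pbx, Prep (Pknox), Meis, Tgif and Iroquois families. Pbx proteins bind DNA as dimers with Prep or Meis, and together they act as cofactors of Hox proteins in the segmented hindbrain. Pbx and Prep products are also loaded into the zebrafish egg, and so are present before zygotic transcription begins and before Hox genes are expressed. At 6hpf the embryo is forming its germ layers: Nodal signals from the margin specify mesoderm and endoderm, BMP signals specify ventral fates, and the dorsal organizer secretes BMP antagonists.

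The 6 libraries held 11884805 to 15031243 estimated counts each. Gastrula genes were present in every library, and only 8 of 22 genes that mark somites, hindbrain, blood and heart at later stages reached the count minimum. At 12hpf replicate 3 stood apart from replicates 1 and 2 in both groups, as measured by a chi-square over genes divided by its degrees of freedom, which was 18.4 and 24.6 in TALE KD and 13.5 and 13.0 in control libraries, against 3.19 in TALE KD and 2.68 in control libraries between replicates 1 and 2. At 6hpf the same measure was 7.26 to 9.92 between TALE KD libraries. Between control libraries of 6hpf it was 16.3 and 16.5 with replicate 1, and 10.5 between replicates 2 and 3. The measure was not corrected for depth, which differed between libraries. Same-numbered replicates were taken as pairs, which was part of how the comparison was defined. The replicate number was used as a block, so that each TALE KD library was set against the control library of the same number. At 6hpf libraries with the same number also deviated together from their group means. Levels are given as CPM, each gene's share of its library's counts scaled to a common library size after TMM scaling, in the order of replicates 1, 2 and 3, and fold-changes as the log2 ratio of TALE KD over control with its standard error (SE). CPM values are not divided by transcript length, and levels are therefore compared between groups and not between genes. A gene was called when its adjusted p was at most 0.01 and its fold-change at least 1.5 in either direction, with edgeR's quasi-likelihood test.

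Few genes passed the thresholds at 6hpf. The called genes were 23 of 10202 tested (0.225%). In TALE KD embryos 17 were lower (0.167%) and 6 were higher (0.0588%). At such shares a gene class of the sizes used below can hold no called gene without differing from all genes. The absence of calls therefore does not set a class apart. In all 23 the TALE KD libraries did not overlap with the control libraries, which held for 11% of all genes tested, and this separation follows in part from the test that chose them. An unadjusted p under 0.05 was found for 1083 genes (10.6%), with 599 lower (5.87%) and 484 higher (4.74%), and this share is the background for the gene classes below. For 7562 genes (74.1%) the whole 95% interval of the fold-change lay within 1.5-fold of no change. In edgeR the count of called genes depended on the block: without it 4 genes were called (0.0392%), namely riok3, cpne1, zgc:112970 and pbx2, and 577 had an unadjusted p under 0.05 (5.66%). DESeq2 without the block called 28 genes, 20 of them among the 23, and did not call bnip4, zgc:112980 and LOC554386. Its adjusted p was 0.0483 for bnip4 and 0.564 for LOC554386. That of zgc:112980 was 9.14e-06, and this gene missed only the fold threshold. Where a gene is said below not to be called without the block, the test is edgeR's. The count also changed when a library was left out. Without either library of the third pair 2 calls were left (riok3 and zgc:112970), against 25 to 37 calls without a library of another pair. With both libraries of the third pair left out more than 2 calls remained, as given in the last section. The fall to 2 therefore does not measure how much the count rested on that pair.

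**Figure D1:**
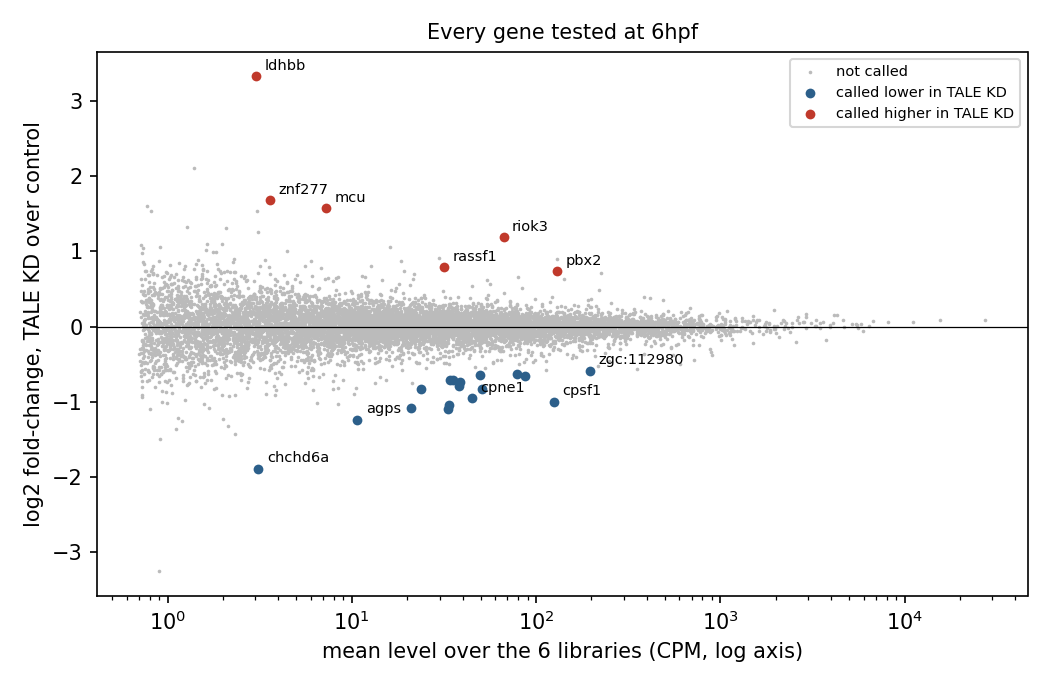
Log2 fold-change of TALE KD over control (vertical axis) against the mean level over the 6 libraries in CPM (horizontal log axis) for the 10202 genes tested at 6hpf. The 23 called genes are coloured, 6 higher and 17 lower in TALE KD, and most genes lie close to a log2 fold-change of 0.

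Among the 6 genes higher in TALE KD embryos, riok3, which encodes an atypical protein kinase of the RIO family, had the smallest p. It was at 84.2, 100.2 and 93.2 CPM in TALE KD libraries, against 38.5, 43.0 and 40.6 CPM in control libraries. The lowest TALE KD library thus lay far above the highest control library, and the log2 fold-change was 1.18 (SE 0.07, adjusted p = 0.000193, edgeR). The largest fold-change was that of ldhbb, a lactate dehydrogenase that interconverts lactate and pyruvate. It was at 3.04, 8.02 and 5.50 CPM in TALE KD libraries, against 0.370, 0.396 and 0.863 CPM in control libraries, a log2 fold-change of 3.33 (SE 0.32, adjusted p = 0.00248, edgeR). The control level of ldhbb rested on as few as 5 counts in a library, and without the block the gene was not called (adjusted p = 0.0331). The gene rassf1, whose mammalian counterpart is a Ras association domain protein, was at 40.1, 39.7 and 40.8 CPM in TALE KD libraries, against 24.6, 21.9 and 23.4 CPM in control libraries. Its replicates were tightly grouped, and its log2 fold-change was 0.79 (SE 0.08, adjusted p = 0.00316, and 0.0168 without the block, edgeR). The gene mcu, the pore subunit of the mitochondrial calcium uniporter, averaged 10.8 ± 2.25 CPM in TALE KD and 3.66 ± 1.05 CPM in control libraries (SD, n = 3 each), a log2 fold-change of 1.58. The gene znf277, which encodes a zinc finger protein, averaged 5.52 ± 1.54 CPM in TALE KD and 1.70 ± 0.285 CPM in control libraries, a log2 fold-change of 1.69. Neither mcu nor znf277 was called without the block, with an adjusted p of 0.0512 for mcu and 0.0606 for znf277. The sixth gene, pbx2, is described with the other TALE genes.

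Of the 17 genes called lower, cpne1 and zgc:112970 had the smallest p. The gene cpne1 encodes a copine, a protein that binds membrane lipids in the presence of calcium. It was at 32.0, 30.8 and 29.3 CPM in TALE KD libraries, against 60.9, 61.2 and 56.6 CPM in control libraries, a log2 fold-change of -0.96 (SE 0.07, adjusted p = 0.00114, edgeR). The level of zgc:112970 was 21.4, 21.1 and 21.2 CPM in TALE KD libraries, against 47.2, 49.4 and 40.0 CPM in control libraries, a log2 fold-change of -1.10 (SE 0.09, adjusted p = 0.00138, edgeR). For both genes the highest TALE KD library lay well under the lowest control library. The gene agps, which encodes a peroxisomal enzyme of ether lipid synthesis, was at 5.60, 6.77 and 6.77 CPM in TALE KD libraries, against 13.2, 15.6 and 16.5 CPM in control libraries. Its log2 fold-change was -1.24 (SE 0.12, adjusted p = 0.00248, and 0.0221 without the block, edgeR).

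The gene bcl2l13, which encodes a mitochondrial protein related to BCL2, was at 14.9, 13.4 and 11.9 CPM in TALE KD libraries, against 32.1, 26.2 and 27.3 CPM in control libraries. Its log2 fold-change was -1.08 (SE 0.10, adjusted p = 0.00204, and 0.0208 without the block, edgeR). The gene chchd6a, related to a mammalian subunit of the complex that shapes the inner mitochondrial membrane, was at 1.45, 1.19 and 1.27 CPM in TALE KD libraries, against 5.62, 3.50 and 5.68 CPM in control libraries. It had the lowest log2 fold-change of the called genes at -1.89 (SE 0.22, adjusted p = 0.00479, edgeR). The chchd6a level rested on 15 to 79 counts a library, and without the block the gene was not called (adjusted p = 0.0345). The gene bnip4 averaged 62.2 ± 14.2 CPM in TALE KD and 95.8 ± 18.5 CPM in control libraries. It was lower by a similar ratio in each pair (log2 fold-change -0.63, adjusted p = 0.00418, edgeR), but the groups varied widely and without the block its adjusted p was 0.482.

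The gene txndc5, which encodes a disulfide isomerase of the endoplasmic reticulum, was at 35.8, 36.3 and 37.65 CPM in TALE KD libraries, against 60.2, 60.1 and 76.2 CPM in control libraries. Its log2 fold-change was -0.83 (SE 0.08, adjusted p = 0.00248, edgeR). The gene yipf5, which encodes a membrane protein of transport between endoplasmic reticulum and Golgi, was at 25.4, 28.8 and 28.9 CPM in TALE KD libraries, against 42.3, 48.4 and 54.0 CPM in control libraries, a log2 fold-change of -0.80 (SE 0.08, adjusted p = 0.00248, edgeR). Lower calls were also made for lnpa, which encodes a shaper of endoplasmic reticulum junctions, for selt2 (selenot2 in RefSeq), which encodes a selenoprotein of the endoplasmic reticulum, and for slc9a6a, which encodes a sodium and proton exchanger of endosomes. Their log2 fold-changes were -0.71, -0.65 and -0.72. Without the block none of these 5 genes was called by edgeR, while DESeq2 called all 5, with edgeR adjusted p of 0.0283 for txndc5, 0.0345 for yipf5, 0.0504 for lnpa, 0.0221 for selt2 and 0.244 for slc9a6a. The other genes called lower were cpsf1, which encodes a subunit of the mRNA cleavage and polyadenylation complex, arhgef39, which encodes a guanine nucleotide exchange factor, zgc:101640 (pitpnc1b in RefSeq), si:dkeyp-50f7.2 (zpax1 in RefSeq), zgc:112980 and LOC554386. Of these, cpsf1 averaged 83.1 ± 10.8 CPM in TALE KD and 167 ± 28.3 CPM in control libraries (SD, n = 3 each), and the next 4 had log2 fold-changes of -0.74, -0.66, -0.84 and -0.59 in that order. None of these 5 genes was called without the block by edgeR, with adjusted p of 0.0221 to 0.0838. DESeq2 without the block called 4 of them and not zgc:112980, which missed only the fold threshold.

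The call of LOC554386 was uncertain. RefSeq gives its transcript the gene symbol cldnd1b, which the table also holds as a row of its own, and RSEM divides reads that match both rows between them. LOC554386 had 179.5, 418.9 and 299.2 estimated counts in TALE KD libraries, against 478.8, 718.0 and 717.7 in control libraries. Its log2 fold-change was -1.05 (adjusted p = 0.00675, and 0.429 without the block, edgeR). The cldnd1b row went the other way, with 671.5, 440.1 and 451.8 estimated counts in TALE KD libraries, against 396.6, 298.0 and 188.3 in control libraries. Their sum was 851.0, 859.0 and 751.0 in TALE KD libraries, against 875.4, 1016 and 906.0 in control libraries, a log2 fold-change of -0.11 (SE 0.07, adjusted p = 0.657, edgeR). The sum was thus not called, while both single rows moved in opposite directions. This was the only called gene among the 27 RefSeq symbols found on more than 1 row.

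**Figure D2:**
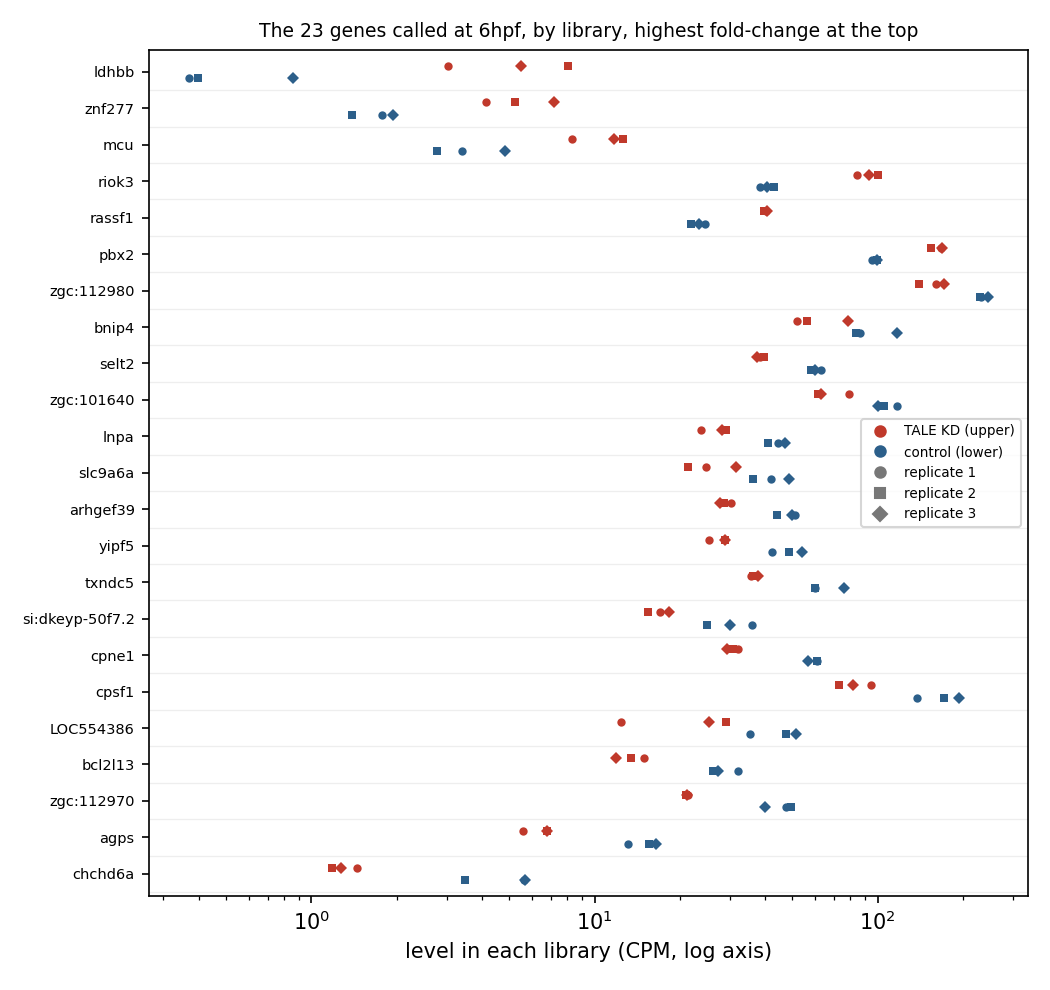
Level of the 23 genes called at 6hpf in each library, in CPM on a log axis, ordered by log2 fold-change with the highest at the top; TALE KD libraries are drawn above control libraries and the symbol gives the replicate number. In each gene the TALE KD libraries all lie on one side of the control libraries.

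The transcripts of the 3 targeted genes were not lower in TALE KD embryos. The level of pbx2 was 168, 154 and 168 CPM in TALE KD libraries, against 95.4, 99.3 and 99.4 CPM in control libraries, and it was the targeted gene called, a log2 fold-change of 0.74 (SE 0.07, adjusted p = 0.00248, and 0.00859 without the block, edgeR). Levels of pbx4 were 359, 312 and 319.7 CPM in TALE KD libraries, against 304, 322 and 330.2 CPM in control libraries. These overlapped, with a log2 fold-change of 0.05 (SE 0.07, adjusted p = 0.858, edgeR). For pknox1.1 the levels were 146, 144 and 137 CPM in TALE KD libraries, against 134, 127 and 113 CPM in control libraries. These did not overlap, with a log2 fold-change of 0.20 (SE 0.07, unadjusted p = 0.016, adjusted p = 0.318, edgeR), which was not a call. RNA levels do not measure the proteins, and whether the knockdown lowered them was not measured here. Of the 15 genes of the TALE family list, which holds Pbx, Prep, Meis and Tgif genes, 9 were tested, and pbx2 was the 1 called. Besides pbx2 and pknox1.1, tgif1, which encodes a TALE repressor of Nodal and retinoic acid responses in mammals, had an unadjusted p under 0.05, at 509, 506 and 485 CPM in TALE KD libraries, against 485, 445 and 431 CPM in control libraries. The Meis genes were low at this stage, with meis3 at 8.43, 6.42 and 6.85 CPM in TALE KD libraries, against 7.47, 6.80 and 5.18 CPM in control libraries. Of the 48 Hox genes listed, 2 reached the count minimum, hoxb1a and hoxb1b, with log2 fold-changes of -0.39 (SE 0.30) and -0.65 (SE 0.45) that did not pass the test.

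Dorsoventral genes were then examined. No gene was called among the 18 organizer genes, the 17 ventral genes or the 20 BMP pathway genes tested, against 0.225% of all genes. Over these lists together, 51 genes were tested, with 1 lower and 5 higher at an unadjusted p under 0.05 (11.8%, against 10.6% of all genes), and their median log2 fold-change was 0.06, against 0.01 over all genes. For 44 of the 51 genes (86.3%) the 95% interval lay within 1.5-fold of no change.

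In the organizer, gsc, a homeobox gene of the prechordal plate, was at 66.8, 55.0 and 56.1 CPM in TALE KD libraries, against 62.9, 50.4 and 49.4 CPM in control libraries. Its log2 fold-change was 0.13, with a 95% interval of -0.02 to 0.29. The BMP antagonist chrd (listed as chd) was at 443, 405 and 337 CPM in TALE KD libraries, against 320.5, 420.4 and 360.2 CPM in control libraries (estimated log2 fold-change 0.11, 95% interval -0.12 to 0.33). The notochord gene noto was at 70.8, 66.8 and 74.5 CPM in TALE KD libraries, against 70.5, 62.0 and 68.4 CPM in control libraries (estimated log2 fold-change 0.08, 95% interval -0.07 to 0.23). In all 3 genes the groups overlapped, and each interval lay within 1.5-fold of no change. Another secreted antagonist, nog1, had a log2 fold-change of 0.29 (SE 0.09, unadjusted p = 0.00901, adjusted p = 0.241, edgeR). The activin antagonist fsta was the lowest of the list at -0.98 (SE 0.29, unadjusted p = 0.00774, adjusted p = 0.222, edgeR), at 1.04, 0.698 and 0.761 CPM in TALE KD libraries, against 1.77, 1.45 and 1.73 CPM in control libraries. Neither nog1 nor fsta was called, and the fsta level was near the count minimum.

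The BMP ligands were likewise similar in both groups. For bmp2b the levels were 102, 89.8 and 108 CPM in TALE KD libraries, against 97.9, 87.6 and 112 CPM in control libraries. For bmp4 they were 66.8, 53.7 and 65.8 CPM in TALE KD libraries, against 75.3, 50.8 and 72.0 CPM in control libraries. For bmp7a they were 173, 151 and 176 CPM in TALE KD libraries, against 184, 146 and 213 CPM in control libraries. In each ligand replicate 2 was the lowest in both groups, so the variation was shared within pairs, and the log2 fold-changes were 0.02, -0.07 and -0.10. All 17 ventral genes tested had 95% intervals within 1.5-fold of no change. The ventral repressors vox, vent and ved, which restrict the organizer, had log2 fold-changes of 0.06, 0.09 and 0.00, and the posterior ventral gene eve1 was at 213, 201 and 215 CPM in TALE KD libraries, against 212, 178 and 211 CPM in control libraries. Genes at an unadjusted p under 0.05 in the BMP list were nog1, the proteases bmp1a and tll1 that cleave Chordin, the receptor bmpr2a and szl, which encodes an inhibitor of such proteases. All 5 had positive log2 fold-changes, of 0.24 to 0.55, and adjusted p of 0.222 to 0.457, and none was called. They were 25% of the 20 BMP pathway genes tested, against 10.6% of all genes (4.74% higher).

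**Figure D3:**
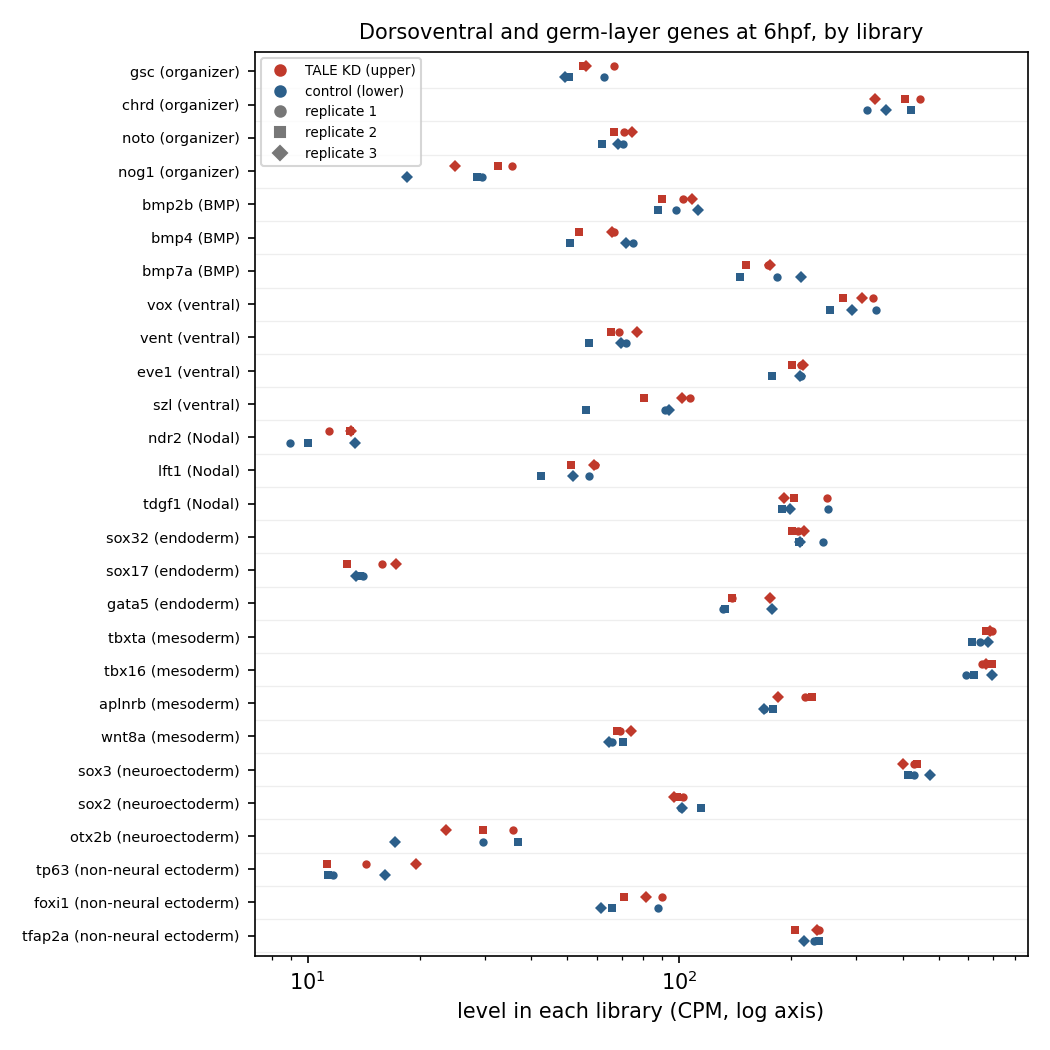
Level of 27 dorsoventral and germ-layer genes in each library at 6hpf, in CPM on a log axis; TALE KD libraries are drawn above control libraries and the symbol gives the replicate number. The groups lie close together or overlap in every gene, and none of the genes shown was called.

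Germ-layer genes gave a similar picture. Over the lists of Nodal signalling, endoderm, mesoderm, neuroectoderm and non-neural ectoderm together, 89 genes were tested. None was called, against 0.225% of all genes. At an unadjusted p under 0.05, 0 were lower and 8 higher (8.99%), against 5.87% lower and 4.74% higher over all genes. The median log2 fold-change was 0.04, and 75 of the genes (84.3%) had intervals within 1.5-fold of no change.

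Of the Nodal genes, the ligand ndr2 was at 11.4, 13.0 and 13.1 CPM in TALE KD libraries, against 8.95 to 13.4 CPM in control libraries, which overlapped (log2 fold-change 0.23, unadjusted p = 0.103). The coreceptor tdgf1 had a log2 fold-change of 0.02. The feedback inhibitor lft1 (0.17), the signal mediator smad2 (0.26) and the homeobox target mixl1 (0.34) had unadjusted p of 0.0471, 0.0114 and 0.0146, with adjusted p of 0.264 to 0.462. They were 18.8% of the 16 Nodal genes tested, against 10.6% of all genes (4.74% higher). For mixl1 the levels were 64.6, 84.1 and 92.6 CPM in TALE KD libraries, against 55.4, 50.7 and 88.7 CPM in control libraries, and the groups overlapped. In endoderm, sox32, the gene that commits cells to endoderm downstream of Nodal, was at 209, 201 and 217 CPM in TALE KD libraries, against 244, 209 and 212 CPM in control libraries (estimated log2 fold-change -0.08, 95% interval -0.24 to 0.08). Its target sox17 had a log2 fold-change of 0.14 (SE 0.12), and gata5 and gata6 had 0.04 and -0.10. Groups overlapped for all 4 of these endoderm genes, and no endoderm gene was called among the 12 tested.

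In mesoderm, the T-box gene tbxta (listed as ta) was at 696, 669 and 686 CPM in TALE KD libraries, against 646, 612 and 677 CPM in control libraries (estimated log2 fold-change 0.09, 95% interval -0.04 to 0.21). The T-box gene tbx16 was at 655, 696 and 668 CPM in TALE KD libraries, against 590.0, 619.6 and 693 CPM in control libraries (estimated log2 fold-change 0.09, 95% interval -0.05 to 0.23). The lateral mesoderm signal wnt8a had a log2 fold-change of 0.07. The only one of the 19 mesoderm genes at an unadjusted p under 0.05 was aplnrb, a receptor needed for the movement of mesendoderm cells, at 219, 228 and 184 CPM in TALE KD libraries, against 169, 178 and 169 CPM in control libraries. The groups did not overlap, with a log2 fold-change of 0.28 (SE 0.07, unadjusted p = 0.00272, adjusted p = 0.14, edgeR), which was not a call.

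Of the 28 neuroectoderm genes tested, 0 had an unadjusted p under 0.05. The neural plate gene sox3 was at 427, 437 and 399.9 CPM in TALE KD libraries, against 429, 414 and 473 CPM in control libraries, and sox2 at 102, 98.6 and 96.9 CPM in TALE KD libraries, against 101, 114 and 102 CPM in control libraries. The log2 fold-changes were -0.05 for sox3 and -0.09 for sox2, and the head gene otx2b (listed as otx2) had 0.11 (SE 0.14). The highest of the list was zic1 at 0.60 (SE 0.31), with 1.53 to 3.94 CPM in TALE KD libraries, against 1.29 to 1.91 CPM in control libraries. Of 16 non-neural ectoderm genes tested, 15 had a log2 fold-change above 0, and the median was 0.12. Over all genes, 4771 of 10202 had a log2 fold-change below 0. The list medians within pairs 1, 2 and 3 were 0.257, -0.0644 and 0.191, so pair 2 lay on the other side of 0. The summed level of the list was 14100 to 15580 CPM in TALE KD libraries and 12670 to 14760 CPM in control libraries, which overlapped. Most of this sum came from the keratins krt8, krt4 and krt18a.1, at 3969, 3771 and 3221 CPM in control replicate 1. These keratins are also markers of the enveloping layer, so the sum is not particular to non-neural ectoderm. Of the 16 genes, krt4, msx1b and msx3 had an unadjusted p under 0.05 (18.8% of the list, against 10.6% of all genes, 4.74% higher). None passed an adjusted p of 0.05, and in each the TALE KD and control libraries overlapped. The epidermal gene tp63 had a log2 fold-change of 0.20 (SE 0.11) and foxi1 one of 0.18 (SE 0.08).

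**Figure D4:**
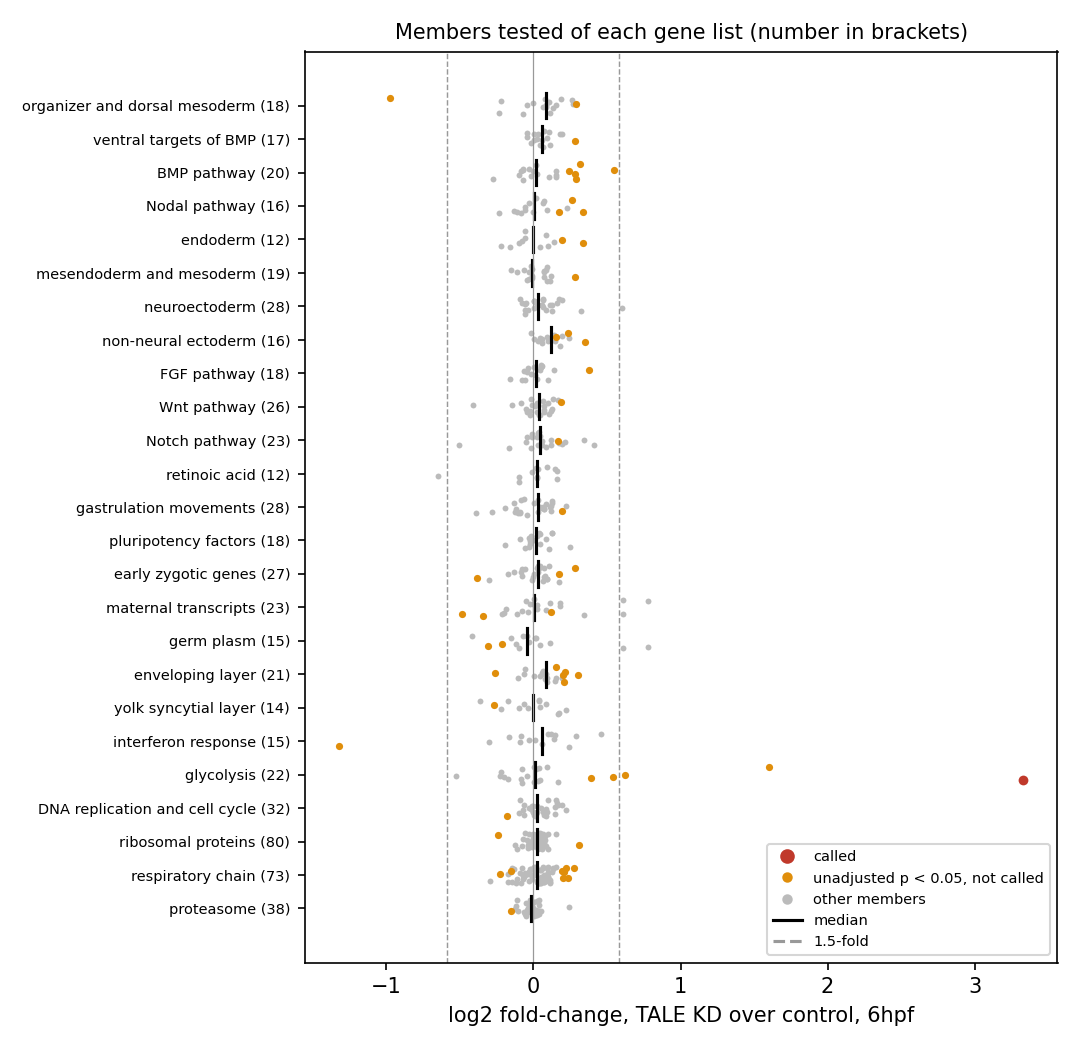
Log2 fold-change of TALE KD over control at 6hpf for the members tested of 25 gene lists, 1 point a gene, with the median of each list as a black bar and the number tested in brackets. The medians lie between -0.05 and 0.12, and ldhbb in the glycolysis list is the only called gene shown.

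Signalling pathways that act in the gastrula held no called gene, against 0.225% of all genes. The lists comprised 18 FGF, 26 Wnt, 23 Notch and 12 retinoic acid genes tested, with medians of 0.02, 0.04, 0.05 and 0.03. A single gene in each of the first 3 had an unadjusted p under 0.05: spred1, an inhibitor of FGF signalling (0.38, SE 0.10, unadjusted p = 0.00301), the Wnt receptor fzd8b (0.19, unadjusted p = 0.0355) and the Notch pathway repressor her8a (0.17, unadjusted p = 0.0405). Spred1 was at 26.3, 24.8 and 24.0 CPM in TALE KD libraries, against 18.1, 20.8 and 18.8 CPM in control libraries, without overlap, and its adjusted p was 0.145. The ligand fgf8a had a log2 fold-change of -0.07. The gene aldh1a2, which makes retinoic acid and is expressed at the margin, was at 147, 141 and 129 CPM in TALE KD libraries, against 140.2, 151 and 120.1 CPM in control libraries (estimated log2 fold-change 0.03, 95% interval -0.13 to 0.18). The 28 genes of gastrulation movements tested included wnt11f2 (listed as wnt11), which had a log2 fold-change of 0.07, and cdh1, which had -0.06, and none was called. The chemokine receptor cxcr4a, also in the endoderm list, had an unadjusted p of 0.032, at 149, 151 and 114 CPM in TALE KD libraries, against 124, 122 and 115 CPM in control libraries, which overlapped.

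The highest members of the TALE and glycolysis lists were called genes. All other ends of the lists lay at genes that did not pass the test. The lowest log2 fold-changes were those of pknox2 in the TALE list (-0.32), twsg1a in the BMP list (-0.28), klf2b among ventral genes (-0.05), sebox in the Nodal list (-0.23), hhex in endoderm (-0.22), mespaa in mesoderm (-0.16), tfap2a in non-neural ectoderm (-0.02), fgf17 in the FGF list (-0.16), wnt3a in the Wnt list (-0.41), jag1b in the Notch list (-0.51), quo among movement genes (-0.39), nfyal among pluripotency factors (-0.19), fgb in the yolk syncytial layer (-0.37), atp5s in the respiratory chain (-0.29) and tnnt3a among segmentation-stage markers (-0.72). The highest were those of her15.1 in the Notch list (0.41), rarga in the retinoic acid list (0.16), snai1b among movement genes (0.22), klf4 among pluripotency factors (0.25), apoa1b in the yolk syncytial layer (0.22), irf7 in the interferon list (0.46), gins2 among replication genes (0.22), psmd10 in the proteasome (0.24) and mafba among segmentation-stage markers (0.57). All of these had an unadjusted p of 0.0523 or more.

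Genes of the maternal-to-zygotic transition held no called gene, against 0.225% of all genes. Among 18 pluripotency factors tested, 0 had an unadjusted p under 0.05, and pou5f3, which activates the zygotic genome with nanog and sox19b, was at 1959, 2069 and 1840.3 CPM in TALE KD libraries, against 1921, 2036 and 2047 CPM in control libraries. The log2 fold-changes of pou5f3, nanog and sox19b were -0.03 (SE 0.05), 0.12 (SE 0.14) and -0.03 (SE 0.07). Of 27 genes of the first zygotic wave tested, 1 was lower and 2 were higher at an unadjusted p under 0.05 (11.1%, against 10.6% of all genes). The lower one was blf, which encodes a zinc finger protein, with an unadjusted p of 0.00102. It was at 62.7, 71.2 and 66.8 CPM in TALE KD libraries, against 93.3, 81.6 and 87.4 CPM in control libraries, without overlap (log2 fold-change -0.38, SE 0.08, adjusted p = 0.083, edgeR). Of 23 maternal transcripts tested, org (-0.48), an oocyte-derived transcript, and larp6a (-0.34) were lower and ybx1 (0.12) higher at an unadjusted p under 0.05. They were 13% of the list, against 10.6% of all genes, and the list median was 0.00. The list was spread more widely than the zygotic ones: 15 of the 23 genes (65.2%) had intervals within 1.5-fold of no change, against 74.1% of all genes, and the medians within pairs 1, 2 and 3 were -0.17, 0.137 and -0.147. Its highest member, buc, which organizes the Balbiani body and germ plasm of the oocyte, was at 3.04, 20.3 and 4.15 CPM in TALE KD libraries, against 6.88, 3.17 and 3.45 CPM in control libraries, so that TALE KD replicate 2 stood alone (estimated log2 fold-change 0.78, SE 0.55).

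The gastrula also holds extraembryonic layers and germ plasm. In the enveloping layer, the outer epithelium, 21 genes were tested and all had intervals within 1.5-fold of no change. Of these, anxa1c was lower and cyt1, cyt1l, krt4, krt5 and krt91 were higher at an unadjusted p under 0.05 (28.6% of the list, against 10.6% of all genes), none with an adjusted p of at most 0.05. The keratin cyt1 was at 1285, 1118 and 1093 CPM in TALE KD libraries, against 1073, 1054 and 916 CPM in control libraries. The summed level of the enveloping layer list was 21490 to 24100 CPM in TALE KD libraries and 19710 to 22400 CPM in control libraries, which overlapped. The list medians within pairs 1, 2 and 3 were 0.235, -0.0196 and 0.0836, so pair 2 lay on the other side of 0. The groups did not overlap for 9.52% of the list, cyt1 among them, against 11% of all genes. In the yolk syncytial layer, slc26a1 was lower at an unadjusted p of 0.0075 (139, 164 and 159 CPM in TALE KD libraries, against 193, 194 and 171 CPM in control libraries), while hnf4a had a log2 fold-change of -0.04. Only slc26a1 in that list had an unadjusted p under 0.05 (7.14%, against 10.6% of all genes). The germ plasm RNA helicase ddx4 had a log2 fold-change of -0.03 (SE 0.08), and piwil1 and celf1 were lower at an unadjusted p of 0.0246 and 0.017. No other germ plasm gene had an unadjusted p under 0.05 (13.3% of the list with these 2, against 10.6% of all genes). The lowest germ plasm gene was piwil2 at -0.42 (SE 0.19). The part of these layers in the results above was not tested.

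Interferon response genes were also examined. Of 15 interferon response genes tested, ifit8 was lower at an unadjusted p of 0.000977 (log2 fold-change -1.32, SE 0.28, adjusted p = 0.0826, edgeR), at 0.760 to 1.44 CPM in TALE KD libraries, against 2.18 to 4.46 CPM in control libraries. It was the only interferon gene at an unadjusted p under 0.05 (6.67% of the list, against 10.6% of all genes). Of the 15 genes 6 had a log2 fold-change below 0, and the list median was 0.06. The list was measured less precisely than most genes. Only 5 of its 15 genes (33.3%) had intervals within 1.5-fold of no change, against 74.1% of all genes.

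The glycolysis list held the called gene ldhbb among 22 tested. Of its other members, pkma was at 20.5, 19.0 and 13.5 CPM in TALE KD libraries, against 12.6, 10.6 and 11.1 CPM in control libraries, without overlap (log2 fold-change 0.62, SE 0.13, adjusted p = 0.073, edgeR). The genes ldha, pfkma and slc16a3 also had positive log2 fold-changes at an unadjusted p under 0.05, of 0.54, 1.60 and 0.39. The groups overlapped for ldha and slc16a3, and pfkma rested on 2 to 26 counts a library. With ldhbb and pkma these genes were 22.7% of the 22 tested, against 10.6% of all genes (4.74% higher). The median of the glycolysis list was 0.01. Its lowest member was eno1b at -0.53 (SE 0.31). In housekeeping lists the medians were 0.03 over 80 ribosomal protein genes, 0.03 over 73 respiratory chain genes, -0.02 over 38 proteasome genes and 0.03 over 32 genes of DNA replication and the cell cycle, and none of these genes was called. At an unadjusted p under 0.05 were the ribosomal protein genes rpl27a (0.31) and rps27.1 (-0.24), the proteasome gene psmd7 (-0.16), the cyclin gene ccna2 (-0.18) and 8 respiratory chain genes. Of those 8, ndufv1 (0.27), ndufa11 (0.23), uqcrh (0.22), cox5aa (0.21), ndufs5 (0.20) and atp5d (0.19) had positive log2 fold-changes, and atp5g1 (-0.23) and uqcrfs1 (-0.15) negative ones. The respiratory chain share was 11%, near the 10.6% of all genes. The shares were 2.5% for ribosomal protein genes, 2.63% for proteasome genes and 3.12% for replication and cell cycle genes. Of the 609 list genes tested in all, 2 were called, pbx2 and ldhbb, against 23 of 10202 over all genes (0.225%).

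The 23 called genes were then measured in the 12hpf libraries, which come from other samples and were not used to call them. At 12hpf 22 of the 23 had a fitted log2 fold-change of the same sign, 16 of the 17 lower and the 6 higher. For mcu that sign has no weight, since its log2 fold-change was 0.00, with means of 5.18 ± 0.585 CPM in TALE KD and 5.19 ± 0.369 CPM in control libraries (SD, n = 3 each). The count was 21 or 22 with any 1 of the 12hpf libraries left out. Of the 23 genes 17 had the same sign at an adjusted p of at most 0.01, against 13.7% of all genes tested at 12hpf at that level in either direction. Without the block 11 genes reached it, and 16 to 19 with 1 of the 12hpf libraries left out. Called at 12hpf with the same sign were 12, against 4.09% of all genes called there (3.31% lower and 0.782% higher). The gene riok3 was at 153, 147 and 139 CPM in the TALE KD libraries of 12hpf, against 56.4, 58.3 and 46.0 CPM in control libraries, a log2 fold-change of 1.45 (SE 0.05, adjusted p = 5.66e-08, edgeR). For cpne1, zgc:112970 and rassf1 the log2 fold-changes at 12hpf were -1.02, -1.28 and 0.89, and all 3 were past the thresholds at both stages. The gene slc9a6a was at -1.29 and cpsf1 at -1.81 (SE 0.22, adjusted p = 0.000191, and 0.0218 without the block, edgeR). The level of cpsf1 was 46.0, 49.7 and 126.6 CPM in the TALE KD libraries of 12hpf, against 248.8, 237.0 and 226.6 CPM in control libraries. TALE KD replicate 3 thus stood apart from the other TALE KD libraries.

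Other genes called at 6hpf had smaller effects at 12hpf, and LOC554386 had one of the opposite sign. The genes were chosen for their effects at 6hpf, so smaller effects at another stage can follow in part from that choice. The tests of a difference between stages used the same 6hpf values. The level of bcl2l13 was 17.8, 17.4 and 16.6 CPM in the TALE KD libraries of 12hpf, against 18.3, 19.4 and 18.4 CPM in control libraries, and its log2 fold-change there was -0.12 (SE 0.07, adjusted p = 0.251, edgeR). The gene mcu was at 4.50, 5.57 and 5.46 CPM in the TALE KD libraries of 12hpf, against 5.27, 4.79 and 5.52 CPM in control libraries. These overlapped. The log2 fold-changes of znf277 and chchd6a at 12hpf were 0.21 and -0.46, with adjusted p of 0.210 and 0.134. That of LOC554386 was 0.50, and that of its sum with the cldnd1b row was 0.09 (adjusted p = 0.324, edgeR). Tested as a difference between stages, pbx2 differed by 0.78 (adjusted p = 0.00117) and bcl2l13 by 0.98 (adjusted p = 0.00176), 2 of the 37 genes among 11450 (0.323%) at an adjusted p of at most 0.01. That count was 1 without replicate 1 or 2 of either group at 12hpf, 93 without replicate 3 of either group at 12hpf, 11 without replicate 2 of either group at 6hpf, and 18 without control and 19 without TALE KD replicate 3 at 6hpf. Without replicate 1 or 2 of either group at 12hpf the differences of pbx2 and bcl2l13 kept their direction but had adjusted p of 0.0126 to 0.0176, and that of bcl2l13 had 0.0101 without control replicate 3 at 6hpf. The differences of mcu (-1.56, adjusted p = 0.0124), znf277 (-1.46, adjusted p = 0.0164), LOC554386 (1.56, adjusted p = 0.0143) and chchd6a (1.45, adjusted p = 0.0376) did not pass. Without the block the difference passed for 4 genes (0.0349%), pbx2 among them and bcl2l13 not (adjusted p = 0.0151).

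**Figure D5:**
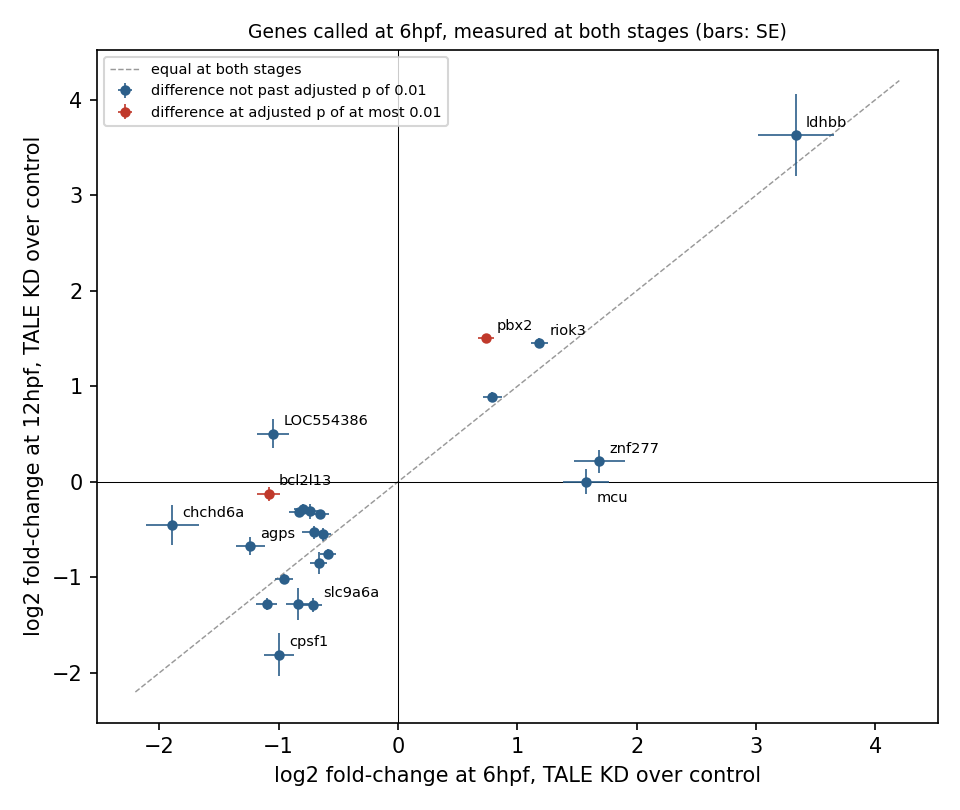
Log2 fold-change of TALE KD over control at 12hpf (vertical axis) against that at 6hpf (horizontal axis) for the 23 genes called at 6hpf, with SE as bars. Of the 23 genes 22 have the same fitted sign at both stages, mcu with a value of 0.00 at 12hpf, bcl2l13, mcu and znf277 lie near 0 at 12hpf, and pbx2 and bcl2l13 differ between the stages at an adjusted p of at most 0.01.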

How the data were processed

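The authors filtered the reads, aligned them to the zebrafish transcriptome of build GRCz10 (danRer10) and quantified genes with RSEM 1.2.28, and the deposited values are estimated counts per gene without normalization, although the tables are named for TPM. DESeq2 and FastQC are named in the submitters' processing notes. Here the estimated counts were rounded, and those genes whose counts averaged 10 or more over a stage's 6 libraries went into edgeR 4.0.16 (glmQLFit and glmQLFTest, TMM factors; R 4.3.3), and p-values were adjusted over all of them by Benjamini-Hochberg. Totals of 11884805 to 15031243 counts limit the precision of low genes, and the depth is given in estimated counts. DESeq2 1.42.0 and limma 3.58.1 were used for alternatives. The procedure was tested on simulated data.

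The replicate number was a block in the model. Same-numbered libraries shared their deviations from the group means with r of 0.458, 0.346 and 0.502 at 6hpf, against -0.391 to -0.0478 for different numbers. Each group was centred on its own mean, so a positive value for the same number forces lower values for other numbers. At 12hpf the values were 0.336, 0.367 and 0.576, against -0.445 to 0.314. Replicates 1 and 2 crossed gave 0.293 and 0.314 there, so that only replicate 3 was set apart at 12hpf. The comparison was defined with same-numbered replicates as pairs, and these correlations were a check of that. The labels give the replicate number and do not say that libraries were paired. The study calls its replicates independent biological ones, and the sources used here do not say whether they came from separate matings. With the block, p-values rest in part on how the difference between groups varied over the pairs. Without it they rest in part on the spread between the samples of a group. In both fits edgeR also drew each gene's spread towards that of the other genes. The p-values therefore do not measure the spread of the gene's own libraries alone.

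Gene symbols were matched to RefSeq by accession, 14276 of 14850. Genes named were the MO targets, the called genes and, in each list, the members with an unadjusted p under 0.05, the lowest and highest, and members well known for the list's function. A stress response list is not reported here. Genes and lists were chosen with earlier results of these data known. A list is described by counts and its median beside those of all genes. The study left out an unnamed 12hpf library, and none was left out here. No sequence or coordinate is given, since the sequences and a genome of this build were not used here.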

Additional observations from a re-analysis of the deposited data

Results flagged for a closer look

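The TALE KD effect differed between 12hpf and 6hpf, in a test of the difference over 11450 genes with the stage-wise replicate block, for 8 genes that are called at 6hpf or belong to a list. Effects are log2 fold-changes, and adjusted p-values are edgeR's. For pbx2 the difference (12hpf minus 6hpf) was 0.782 and for bcl2l13 it was 0.977. The effect of pbx2 was positive at 6hpf and larger at 12hpf, while that of bcl2l13 was negative at 6hpf and smaller at 12hpf. The other 6 were near 0 at 6hpf and higher in TALE KD embryos at 12hpf. For aldh1a2 the effect was 0.03 at 6hpf and 1.36 at 12hpf, a difference of 1.35 (adjusted p = 0.000849, and 0.00107 without the block). At 12hpf aldh1a2 was at 126, 131 and 114 CPM in TALE KD libraries, against 49.8, 43.0 and 51.5 CPM in control libraries. For sox32 the difference was 1.60 (adjusted p = 0.00115, and 0.205 without the block), with 7.27, 5.69 and 2.48 CPM in the TALE KD libraries of 12hpf, against 2.23, 2.04 and 1.09 CPM in control libraries. For lft2 it was 1.36, with 8.91, 8.89 and 5.93 CPM in the TALE KD libraries of 12hpf, against 3.00, 3.17 and 2.67 CPM in control libraries.

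The remaining genes were vrtn, with a difference of 0.804, klf2b, with 0.565, and pou5f3, with 0.552. Sox32, lft2, vrtn, klf2b and pou5f3 were at lower levels at 12hpf than at 6hpf in both groups: pou5f3 was at 34.0, 31.7 and 31.7 CPM in the TALE KD libraries of 12hpf, against 22.8, 21.2 and 24.6 CPM in control libraries, whereas at 6hpf it was at 1840.3 to 2069 CPM in TALE KD libraries and 1921 to 2047 CPM in control libraries. Without the block the difference passed an adjusted p of 0.01 for aldh1a2 and pbx2 but not for the other 6 genes, with adjusted p of 0.0151 to 0.230. With any 1 library left out the difference of aldh1a2 kept an adjusted p of at most 0.00981, and each of the other 7 genes lost the threshold without at least 1 library. No cause of these differences was tested.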

How the results depend on the processing

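Every one of the 23 called genes kept its direction under all alternatives in which it was tested. The count of 23 calls (17 lower, 6 higher) was 4 (2 lower, 2 higher) without the replicate block, 52 (30 lower, 22 higher) with no count minimum, 15 (3 higher) at a mean of at least 50 counts and 41 at an adjusted p of at most 0.05. DESeq2 called 32 genes with the block and 28 without, of which 12 and 11 were higher and 23 and 20 were among the 23 genes. Leaving out 1 library gave 2 to 37 calls, 1 to 21 lower and 1 to 16 higher, with 2 calls without TALE KD replicate 3 or control replicate 3. In alternatives chosen after seeing the data, pairs 1 and 2 alone gave 15 calls (8 lower), pairs 1 and 3 alone 38 (14 higher) and pairs 2 and 3 alone 25, and summing rows of the same RefSeq symbol gave 23 (16 lower). Of the 2 list members called, 1 was called without the block, 1 at a mean of at least 50 counts and 0 to 2 with 1 library left out. Of the lists other than the TALE and glycolysis ones, 1 gene, foxo3b of the list not reported, was called with no count minimum. The 17 called genes with the same sign at an adjusted p of at most 0.01 at 12hpf were 11 without the block, and the 37 genes that differed between stages were 4 without the block and 1 to 93 with 1 library left out. Signs turned with 1 library left out for genes close to no change: lowest and highest log2 fold-changes were -0.0443 and 0.102 for pbx4, -0.0705 and 0.208 for chrd, -0.0072 and 0.0514 for bmp2b, -0.0182 and 0.0949 for aldh1a2, -0.137 and 0.324 for nanog, -0.0624 and 0.0268 for pou5f3, and -0.0983 and 0.0656 for ddx4. With 1 library left out the list medians of 0.00 for maternal transcripts and 0.06 for interferon genes spanned -0.156 to 0.0631 and -0.0966 to 0.153, those of mesoderm and the Notch list reached 0.0825 and 0.121, that of glycolysis -0.0945 and that of the yolk syncytial layer -0.0634. The cause was not tested. Depth limits genes under about 1 CPM, which rest on few counts.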
